A study of Mus musculus with 2 samples.

Results

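The cells described here were 1169 Cd209a-positive cells of the mouse spleen, out of 31699 cells kept from 2 droplet single-cell RNA-seq libraries. The library labelled wild-type held 309 of them among 19419 kept cells, and the library labelled SCD held 860 among 12280. They were selected on their own transcript counts. A cell was kept with 500 to 5000 detected genes and under 15% mitochondrial UMIs (unique molecular identifiers, the tagged transcript copies that are counted). It became a member with at least 2 UMIs of Cd209a, with Vcam1 and Spic together under 0.5% of its UMIs, with at least 1 of the 5 monocyte genes Ccr2, Ly6c2, Vcan, F13a1 and Ms4a4c, with fewer than 2 of the 4 conventional DC2 genes Esam, Dtx1, Clec4a4 and Tnip3, and with no Ccr7. The working name of these cells was monocyte-like dendritic cells (DCs), with Cd209a, Ccr2 and Clec10a as markers. Members with a monocyte gene other than Ms4a4c held further transcripts of monocytes and of DCs, but monocyte genes had chosen them, so this is no test of the name. The data went against the name for the 113 and 343 members (36.6% and 39.9%) in which Ms4a4c was the only monocyte gene found. All of the cells are therefore called Cd209a-positive members here.

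The study asked how chronic hemolysis changes the phagocytes of the spleen, and compared a Berkeley sickle cell disease (SCD) mouse with a control from the same litters. Each library came from the spleen of 1 untreated mouse aged 12 to 16 weeks, after lysis of erythrocytes and positive selection with anti-F4/80 beads, which bind macrophages. Both mice were homozygous for Hbatm1Paz, which removes the mouse α-globin genes, and both carried Tg(HBA-HBBs)41Paz, a transgene with human α-globin and sickle β-globin. The SCD mouse was homozygous for Hbbtm1Tow, a deletion of the adult mouse β-globin genes, and homozygous for the transgene. The control mouse, labelled wild-type, was heterozygous for Hbbtm1Tow and hemizygous for the transgene. The strain has a mixed genetic background, the beads set how many cells of each type were loaded, and with 1 mouse a genotype no comparison between the libraries has a replicate. No p-value is given. Intervals are 95% exact intervals that cover counting error only.

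Before any result, the β-globin genes were read as a check of the labels, and they went against them. Levels are given in CPM, the UMIs of a gene among 1000000 UMIs summed over the cells of a population. Erythroid cells of the library labelled wild-type held Hbb-bs at 156 CPM, and those of the library labelled SCD held it at 70420 CPM. For Hbb-bt these levels were 273 and 21358 CPM. The homozygous deletion would leave these genes silent in the SCD mouse. In the members Hbb-bs was at 32.6 and 4160 CPM. The libraries are therefore named by their labels throughout, and each direction between them depends on those labels. The libraries shared 107 barcodes, of which 65 were kept in both, and 0 barcodes were members in both. Values below are given for the library labelled wild-type first and for the library labelled SCD second.

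DCs take up antigen, load its peptides on MHC class II molecules and show them to CD4+ T cells. Conventional DCs arise from bone marrow precursors under Flt3 ligand and use the transcription factor Zbtb46, whereas Ly6c-high monocytes leave the marrow with the chemokine receptor Ccr2 and can take on DC features in tissue. Cd209a, a mouse relative of the human C-type lectin DC-SIGN, is found on DCs of both kinds, so the gene alone does not tell them apart.

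Depth was even between the libraries at the level of the members. The members had a median of 6094 and 6364 UMIs and of 2463 and 2532 genes per cell, within libraries of 145953464 and 73986356 UMIs. Cd209a (chr8:3743397-3748984, minus strand, build GRCm38.p6) gave a median of 4 and 5 UMIs per member, with a range of 2 to 50 and of 2 to 67. Exactly 2 UMIs were found in 74 and 175 members, and 177 and 298 cells fell outside by 1 Cd209a UMI alone. The lectin gene Clec10a (chr11:70156197-70170834, plus strand), which the rule did not use, was at 73.1 and 97.4 CPM in members with exactly 2 Cd209a UMIs and at 59.3 and 71.7 CPM in the cells just outside. Across the same limit H2-Ab1 was at 4160 and 6091 CPM inside and at 2820 and 4311 CPM outside, and Lyz2 at 2412 and 2755 CPM inside and at 2758 and 4711 CPM outside.

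The requirement of 1 monocyte gene was met in different ways. A UMI of Ms4a4c, a membrane protein gene of the Ms4a family, was found in 71.5% and 81.6% of members, of Ccr2 in 57.9% and 57.9%, of F13a1 in 22.3% and 24.3%, of Ly6c2 in 16.5% and 17.0%, and of Vcan in 8.41% and 4.53%. Just 1 of the 5 genes was found in 57.9% and 55.7% of members. Of the 5 genes Ms4a4c was also the most frequent in B lymphocytes. When every cell was thinned to 1500 UMIs it was found in 27.5% and 32.9% of members but also in 9.01% and 16.7% of B lymphocytes, where Ccr2 was found in 1.47% and 0.546%. The median depth of B lymphocytes was 2542 and 2929 UMIs before thinning.

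The members with Ms4a4c alone and the members with another monocyte gene differed in their wider transcriptome. This split was chosen after the values had been seen, and Ccr2, Ly6c2, Vcan, F13a1 and Ms4a4c are left out of its counts. The members with another monocyte gene were chosen by such genes, and the part of doublets in the split was not tested. Clec10a was at 24.7 and 16.0 CPM in the 113 and 343 members with Ms4a4c alone, and at 330 and 353 CPM in the 196 and 517 members with another monocyte gene. Lyz2, which encodes lysozyme, was at 489 and 222 CPM against 3354 and 4593 CPM. Fn1, the fibronectin gene that Ly6c-high monocytes transcribe, was at 2.90 (2 UMIs) and 14.2 CPM against 414 and 417 CPM. All 3 genes were higher in the members with another monocyte gene in both libraries, and for Clec10a the log2 ratio was 3.74 (3.05 to 4.53) and 4.47 (4.20 to 4.75).

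Conventional DC genes lay the other way across the same split. Zbtb46 was at 167 and 153 CPM in members with Ms4a4c alone and at 47.7 and 59.6 CPM in the others. Kit, the stem cell factor receptor that some splenic DCs express, was at 305 and 383 CPM against 105 and 95.7 CPM. MHC class II stayed high on both sides, with H2-Ab1 at 5233 and 7568 CPM against 4630 and 6229 CPM. Depth differed little by comparison, with medians of 5229 and 5746 UMIs in members with Ms4a4c alone and of 6528 and 6855 UMIs in the others.

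Over 3931 genes, 65 (1.65%) were more than 2-fold higher and 66 (1.68%) more than 2-fold lower in members with another monocyte gene, the same way in both libraries, with a median log2 ratio of -0.02 and 0.01 over all genes. Of 21 further genes of Ly6c-high monocytes, 9 were past 2-fold higher and 0 lower (list medians 0.98 and 1.17), among them Chil3, Ccl9, Cx3cr1 and Emilin2. Of 10 myeloid C-type lectins, 5 were higher and 0 lower, namely Clec10a, Clec7a, Clec4b1, Clec4a3 and Clec12a. Of 21 core genes of conventional DCs, 0 were higher and 7 lower (medians -0.80 and -0.83), with Adam23, Kit, Gpr82 and Zbtb46 among them. Of 13 MHC class II genes, the 4 past the limit were all lower, namely H2-Eb2, H2-DMb2 and the genes H2-Oa and H2-Ob of the H2-O molecule, which restrains peptide loading. The classical genes H2-Ab1, H2-Aa and H2-Eb1 and the invariant chain gene Cd74 did not pass it.

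**Figure D1:**
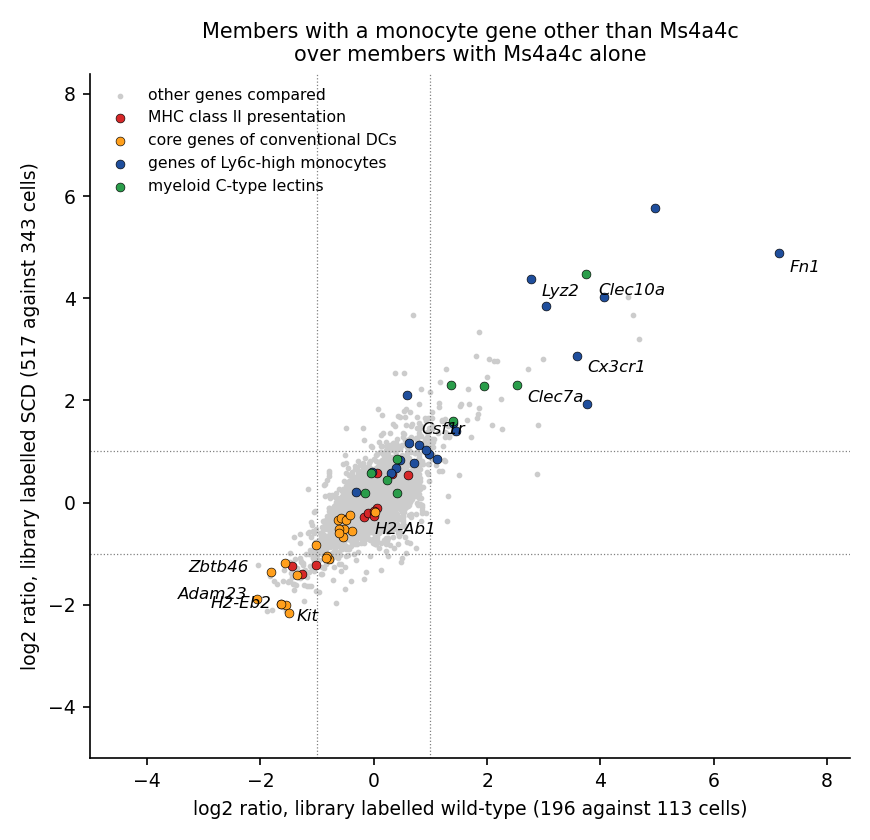
Each point is 1 of the 3931 genes compared, placed by the log2 ratio of its CPM in members with a monocyte gene other than Ms4a4c over its CPM in members with Ms4a4c alone, in the library labelled wild-type (x axis) and the library labelled SCD (y axis). Dotted lines mark 2-fold. Fn1, Lyz2, Cx3cr1 and Clec10a lie at the upper right, Kit, Zbtb46 and Adam23 at the lower left and H2-Ab1 near 0.

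Cells that met every other condition but had no monocyte gene resembled the members with Ms4a4c alone. There were 211 and 525 of them. Their Clec10a level was 21.8 and 13.9 CPM, Fn1 was at 7.26 and 5.27 CPM, Lyz2 at 536 and 163 CPM, Kit at 297 and 427 CPM, and Zbtb46 at 140 and 167 CPM. Each of these values was nearer to the members with Ms4a4c alone than to the members with another monocyte gene. Their median depth, 4389 and 4743 UMIs, was the lowest of these groups.

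For the comparisons that follow, other cells were named by rules on their own counts, with no clustering. Ly6c-high monocytes had at least 3 of the 5 monocyte genes and no Cd209a, and numbered 1157 and 521. Conventional DC2 (cDC2), the DC subset that presents antigen to CD4+ T cells, had at least 2 of the 4 genes Esam, Dtx1, Clec4a4 and Tnip3, and numbered 103 and 304. Ly6c-low monocytes had at least 2 of Ace, Treml4, Eno3 and Spn, and erythroid cells at least 3 of 6 erythroid genes. Macrophages had Vcam1 and Spic at 0.5% of UMIs or more and fewer than 2 of the erythroid genes. Mature DCs with Ccr7 and B lymphocytes were named in the same manner. Cells that met several of these rules were left out, but a member that met another rule stayed a member. This can lower Ace, Eno3, Spn and erythroid genes in cDC2 and Ly6c-high monocytes relative to members. The 13 genes of the rule for members, which include those for Ly6c-high monocytes and cDC2, are left out of counts. The remaining genes still come from cells that the rules chose, so the ratios describe the populations and test nothing.

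MHC class II genes had the highest medians against Ly6c-high monocytes of any list with more than 1 gene compared. H2-Ab1, the class II β chain gene (chr17:34257689-34269419, plus strand), was at 4821 (4729 to 4914) and 6701 (6637 to 6765) CPM in members and at 261 and 989 CPM in Ly6c-high monocytes. The α chain gene H2-Aa (chr17:34282744-34287823, minus strand) was at 6812 and 8364 CPM, against 353 and 1257 CPM. Cd74 was at 10549 and 13406 CPM, against 743 and 2709 CPM. Members were above monocytes in both libraries for all 3 genes.

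Of 13 MHC class II presentation genes compared, 10 were more than 2-fold higher in members than in Ly6c-high monocytes in both libraries and 0 lower, beside 278 of 7933 genes (3.5%) higher and 196 (2.47%) lower overall. The list medians were 3.68 and 2.73, and the medians over all genes -0.04 and 0.01. Ciita, the transcriptional coactivator of these genes, was at 442 and 489 CPM in members and at 38.2 and 146 CPM in monocytes. The exceptions were the cathepsin gene Ctss, Lgmn and H2-DMa. As these genes were higher together, the DNA before their starts is shown for 5 of them from RefSeq, build GRCm38.p6, as the 150 bases that end at the base before the start. Capitals mark GATTGG or, on the other strand, CCAATC, the letters of the inverted CCAAT sequence known as the Y box of class II promoters.

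H2-Aa, chr17:34287824-34287973, minus strand: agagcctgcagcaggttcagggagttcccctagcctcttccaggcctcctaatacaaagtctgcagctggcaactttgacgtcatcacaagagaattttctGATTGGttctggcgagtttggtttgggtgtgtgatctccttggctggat
H2-Eb1, chr17:34305717-34305866, plus strand: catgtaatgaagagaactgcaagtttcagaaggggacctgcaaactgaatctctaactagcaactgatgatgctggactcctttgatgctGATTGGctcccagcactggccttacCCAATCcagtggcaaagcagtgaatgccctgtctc
H2-DMb1, chr17:34153041-34153190, plus strand: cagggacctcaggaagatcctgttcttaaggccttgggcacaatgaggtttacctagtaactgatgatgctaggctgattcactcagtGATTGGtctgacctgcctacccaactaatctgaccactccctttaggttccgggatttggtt
H2-DMb2, chr17:34145099-34145248, plus strand: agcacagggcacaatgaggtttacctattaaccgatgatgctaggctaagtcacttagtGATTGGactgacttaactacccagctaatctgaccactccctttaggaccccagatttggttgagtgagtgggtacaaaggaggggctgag
H2-Oa, chr17:34092229-34092378, plus strand: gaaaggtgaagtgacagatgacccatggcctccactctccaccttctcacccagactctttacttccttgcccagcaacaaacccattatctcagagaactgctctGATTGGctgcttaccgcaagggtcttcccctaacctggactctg

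The first match began 49 bases before the start in H2-Aa, 60 in H2-Eb1, 62 in H2-DMb1, 91 in H2-DMb2 and 44 in H2-Oa. Of the 16 listed genes, 11 had a window in the table and 7 of these held the letters on either strand, also H2-Eb2 and H2-Ob. Among all 27025 genes with such a window 3411 (12.6%) held them in at least 1 window. A match is a description of the letters and not of a bound factor. H2-DMa, Ctss, Ifi30 and Lgmn held no match in their windows, and neither did Cd209a, Flt3 and Ccr2.

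Core DC genes were the other group far above Ly6c-high monocytes. Flt3, the receptor for Flt3 ligand, was at 139 and 189 CPM in members and at 9.45 and 25.1 CPM in monocytes. Zbtb46 was at 85.4 and 92.7 CPM, against 3.66 and 8.57 CPM. Itgax, which encodes CD11c, was at 194 and 216 CPM, against 8.15 and 10.4 CPM, a log2 ratio of 4.57 (4.20 to 4.96) and 4.38 (3.89 to 4.91). Of 23 core DC genes, 16 were past 2-fold higher and 0 lower, with medians of 2.53 and 2.06. Of 9 costimulation and maturation genes, 6 were higher and 0 lower, namely Cd83, Relb, Icosl, Cd80, Cd274 and Il4i1, while Cd86, Cd40 and Cd48 did not pass the limit.

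Ranked by the smaller of the log2 ratios, the 10 genes furthest above monocytes were Gpr82, Mmp12, Itgax, Klrd1, H2-Oa, Eno3, Rtn1, Kit, Cd7 and Ffar2. Of these Gpr82, H2-Oa, Kit, Cd7 and Ffar2 were more than 2-fold lower in members with another monocyte gene than in members with Ms4a4c alone. Eno3 is a gene of the Ly6c-low monocyte rule, and cells that also met that rule were left out of Ly6c-high monocytes but not of members. Mmp12, a macrophage elastase gene, was at 213 and 269 CPM in members and at 5.20 and 11.3 CPM in monocytes. Ffar2, a receptor for short-chain fatty acids, was at 333 and 355 CPM, against 14.5 and 22.6 CPM. The Mmp12 level was also well above that of Ly6c-low monocytes, at 53.2 and 113 CPM, and in the library labelled SCD it did not stand apart from cDC2, at 261 CPM.

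Summed over all members, monocyte genes lay below the monocyte level without being absent. Of 27 further genes of Ly6c-high monocytes, 14 were more than 2-fold lower in members and 0 higher (medians -1.19 and -1.25). Fn1 was at 284 and 275 CPM in members and at 2268 and 1775 CPM in monocytes. In the members with Ms4a4c alone it was at 2.90 and 14.2 CPM. Lyz2 was at 2447 and 3052 CPM, against 7832 and 12732 CPM. Csf1r, the receptor for M-CSF, lay close in both populations, at 358 and 463 CPM against 436 and 732 CPM. Among the genes furthest below were Sgms2, Clec4d, Mmp8, Fn1, Hp, C3, F10, Plcb1 and Clec5a. Of these Hp encodes haptoglobin and C3 the central complement protein.

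Lectins and chemokines did not move as 1 group against monocytes. Of 13 myeloid lectins, only Clec4b1 was, over all members, past 2-fold higher in both libraries, and Clec4d, Clec5a and Clec4e were lower. Clec10a was at 234 and 234 CPM in members and at 72.4 and 129 CPM in monocytes, which passed 2-fold in the library labelled wild-type alone (log2 ratios 1.69 and 0.86). The members with a monocyte gene other than Ms4a4c, at 330 and 353 CPM, stood at more than 2 times the monocyte level in both libraries, and the members with Ms4a4c alone stood below it. Of 6 chemokines, Ccl5 and Cxcl16 were higher and Ccl9 and Ccl6 lower. Of 38 myeloid transcription factor genes, 6 were higher (Zbtb46, Runx3, Bcl11a, Bach2, Relb and Bhlhe40) and 2 lower (Nfil3 and Cebpb). Of 31 interferon-stimulated genes, 5 were lower and 0 higher, and of 22 cell cycle genes 0 passed the limit in both libraries.

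Limited to the members with a monocyte gene other than Ms4a4c, 158 genes passed 2-fold higher and 103 lower against Ly6c-high monocytes, of which 151 and 101 were among the 278 and 196 above.

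**Figure D2:**
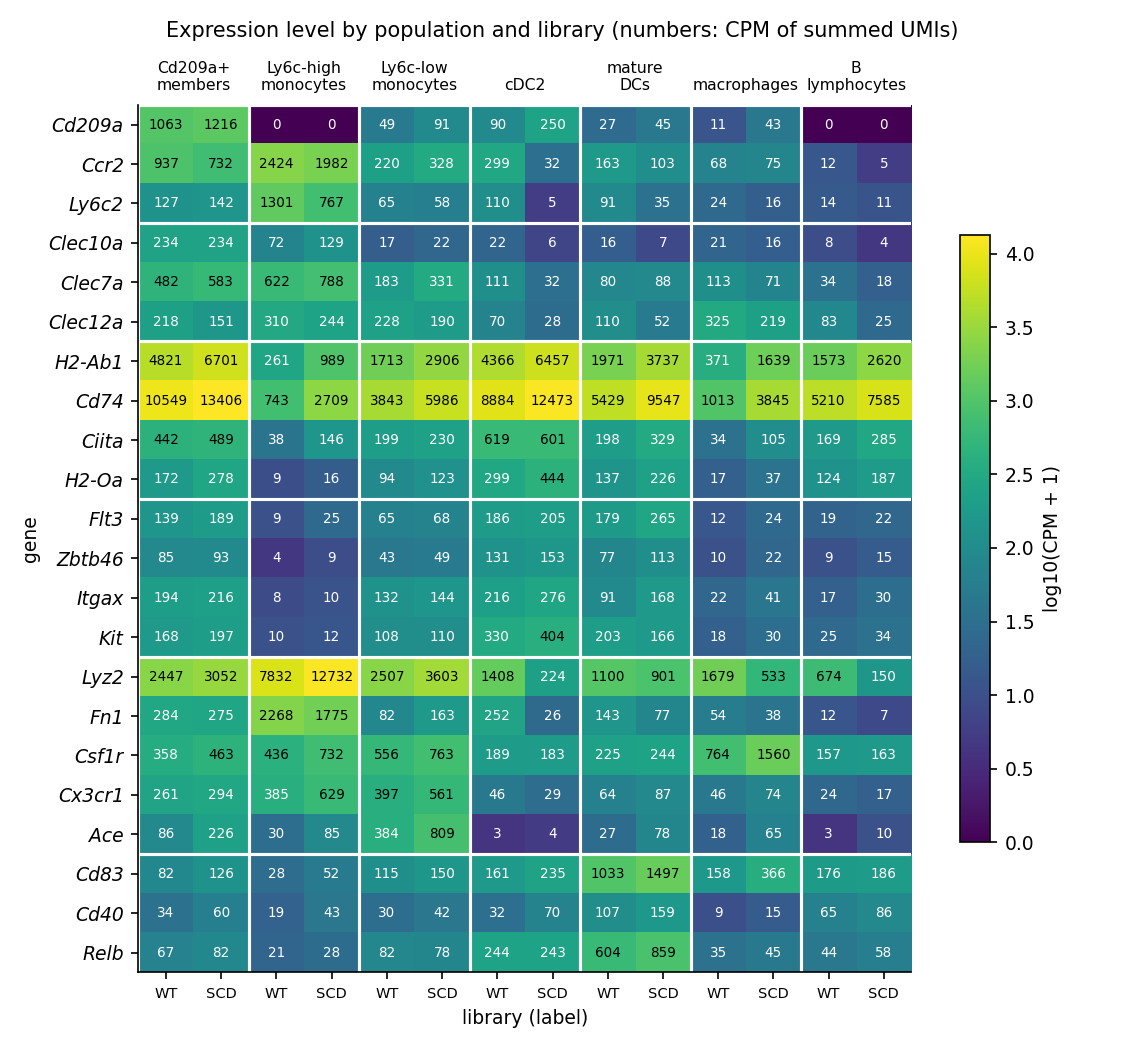
Rows are genes in groups (selection genes, lectins, MHC class II, core DC genes, monocyte genes, costimulation), columns are 7 populations in the library labelled wild-type (WT) and the library labelled SCD, and numbers are CPM of summed UMIs, with color on a log10(CPM + 1) scale. Cd209a is 0 in Ly6c-high monocytes and B lymphocytes by definition. Ly6c-low monocytes were chosen in part by Ace. Summed over all members, the MHC class II genes H2-Ab1 and Cd74 lie near the cDC2 level, Zbtb46 and Kit below it and Clec10a, Clec7a and Cx3cr1 above it, although high Zbtb46 and high Clec10a fall in different members of the Ms4a4c split.

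Against cDC2, a number of lectins and monocyte genes stood higher in the members as a whole, and 1 MHC class II gene passed 2-fold. H2-Ab1 was at 4366 and 6457 CPM in cDC2, a log2 ratio of 0.14 and 0.05. Of the 13 MHC class II genes only H2-Eb2 passed 2-fold, and it was lower in members, beside 65 of 4721 genes (1.38%) higher and 57 (1.21%) lower overall. The list medians were 0.25 and 0.09, and the medians over all genes -0.07 and -0.03. Of 22 core DC genes 0 were higher and 3 lower (H2-Eb2, Adam23 and Traf1), with medians of -0.62 and -0.49. Zbtb46 was at 131 and 153 CPM in cDC2, and Kit at 330 and 404 CPM against 168 and 197 CPM in members.

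Of 10 lectins, 5 were higher in members and 0 lower (medians 1.07 and 1.70). Clec10a was at 21.6 and 6.23 CPM in cDC2, a log2 ratio of 3.44 (2.65 to 4.36) and 5.23 (4.42 to 6.19). Clec7a, which encodes the β-glucan receptor dectin-1, was at 482 and 583 CPM in members and at 111 and 31.6 CPM in cDC2. Clec12a, Clec4b1 and Clec4a3 were the remaining 3. In B lymphocytes Clec10a was at 8.50 and 3.65 CPM and Clec7a at 34.0 and 17.6 CPM. The cDC2 level of Clec10a in the library labelled SCD rested on 12 UMIs.

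Of 22 further monocyte genes, 5 were higher in members than in cDC2 and 0 lower (medians 0.66 and 1.46), among them Cx3cr1, Ccl9, Ifitm3 and Emilin2. Cx3cr1, the fractalkine receptor gene, was at 261 and 294 CPM in members and at 46.5 and 28.5 CPM in cDC2. The cDC2 of the library labelled wild-type themselves held monocyte transcripts. In those 103 cells Fn1 was at 252 CPM and Lyz2 at 1408 CPM, against 26.0 and 224 CPM in the 304 cDC2 of the library labelled SCD. For Fn1 the log2 ratio of members to cDC2 was accordingly 0.17 in the first library and 3.40 in the second. The part of monocyte transcripts in the cDC2 comparison was not tested.

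The 10 genes furthest above cDC2 were Ace, Clec10a, Olfm1, Fcgr2b, Cd93, Cxcl16, Apol11b, Cx3cr1, Ccl9 and Abca9. Cells that also met the Ly6c-low monocyte rule, which uses Ace, or the erythroid rule were left out of cDC2 but not of members. The part of this choice in the ranks of Ace and Apol11b was not tested. Ace, which encodes the angiotensin-converting enzyme and marks Ly6c-low monocytes, was at 86.3 and 226 CPM in members, at 384 and 809 CPM in Ly6c-low monocytes and at 3.32 and 4.15 CPM in cDC2, where the first value rested on 2 UMIs (log2 ratios 4.70, 2.83 to 7.76, and 5.77, 4.79 to 6.98). Apol11b was at 168 and 21.7 CPM in members and at 883 and 718 CPM in erythroid cells, and the part of erythroid RNA in its rank was not tested. The inhibitory Fc receptor gene Fcgr2b was at 140 and 193 CPM, against 21.6 and 13.5 CPM. Furthest below cDC2 were Ryr3, Dtl, Uhrf1, Ifitm1, Chka, Gpm6b, Il4i1, Tbc1d4, Scn3a and Relb. Relb, an NF-κB subunit gene, was at 66.6 and 82.1 CPM in members, at 244 and 243 CPM in cDC2 and at 604 and 859 CPM in mature DCs. Of 8 costimulation genes, Relb, Il4i1 and Cd274 were lower than in cDC2 and 0 were higher. Limited to members with a monocyte gene other than Ms4a4c, 91 genes were past 2-fold higher than in cDC2 and 110 lower, of which 53 and 39 were among the 65 and 57 that all members gave.

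**Figure D3:**
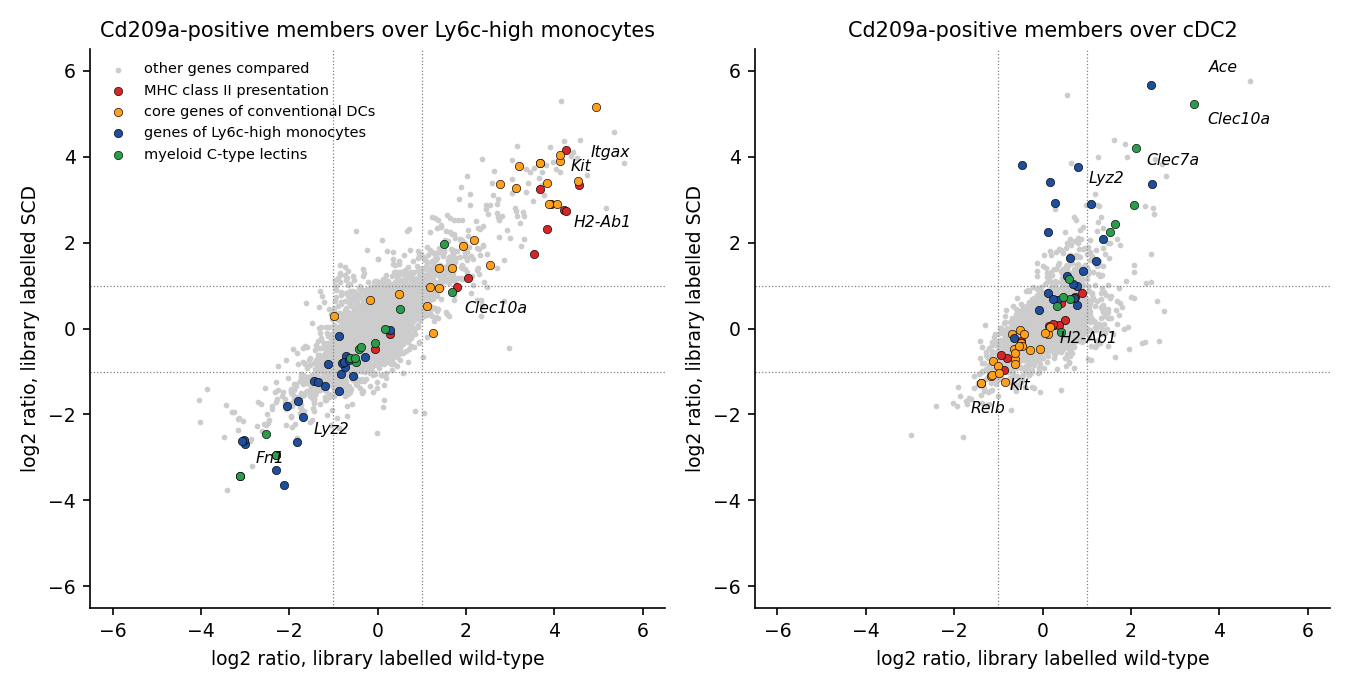
Each point is 1 gene, placed by its log2 ratio in the library labelled wild-type (x axis) and the library labelled SCD (y axis), for members over Ly6c-high monocytes (left, 7933 genes) and members over cDC2 (right, 4721 genes). Dotted lines mark 2-fold. MHC class II and core DC genes extend to the upper right on the left panel, and on the right panel MHC class II genes lie mostly near 0 and core DC genes mostly below it, where some lectins and monocyte genes reach the upper right.

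Cd74, H2-Ab1, Cd83 and Cd40, which the study measured by quantitative PCR in DCs beside Ccr7, were read in every population. Cd83, a marker of mature DCs, was at 82.2 (70.6 to 95.1) and 126 (117 to 135) CPM in members, at 1033 and 1497 CPM in mature DCs and at 28.5 and 51.7 CPM in Ly6c-high monocytes. Cd40, the receptor that receives T cell help, was at 34.4 (27.1 to 43.2) and 60.3 (54.4 to 66.8) CPM, below the 64.7 and 86.1 CPM of B lymphocytes, which use it. Cd40 was at 31.5 and 70.1 CPM in cDC2 and at 18.6 and 42.8 CPM in Ly6c-high monocytes. Mature DCs held it at 107 and 159 CPM. Mature DCs were chosen by Ccr7 and members by its absence, so their Cd83 and Cd40 levels are a description. Between the libraries the log2 ratio, SCD-labelled over wild-type-labelled, was 0.62 for Cd83, 0.81 for Cd40, 0.47 for H2-Ab1 and 0.35 for Cd74, and none passed 2-fold.

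The library labelled SCD held the larger share of members among its kept cells. Members made up 1.59% (1.42 to 1.78) and 7.0% (6.56 to 7.47) of them, and the log2 ratio was 2.14 (1.95 to 2.32). With each cell thinned to 1500 UMIs before the rule, the shares were 0.549% and 2.36%. The split kept the same direction, with 1.01% and 4.21% for members with another monocyte gene and 0.582% and 2.79% for members with Ms4a4c alone. The size of this difference depended on what the share was taken of. Macrophages, which by their rule had fewer than 2 erythroid genes, were 24.5% and 18.2% of kept cells. Cells low in Vcam1 and Spic, whatever their erythroid genes, were 10865 of 19419 and 9656 of 12280 kept cells. Among cells low in Vcam1 and Spic the share of members was 2.84% and 8.91%, and among members, Ly6c-high monocytes and cDC2 it was 19.7% and 51.0%.

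Against cDC2 alone the share hardly differed. Members were 75% (70.5 to 79.1) and 73.9% (71.3 to 76.4) of members and cDC2 together, a log2 ratio of -0.02 (-0.12 to 0.07). The cDC2 themselves were 0.530% and 2.48% of kept cells, mature DCs 2.27% and 5.38%, and Ly6c-low monocytes 3.82% and 12.8%. Ly6c-high monocytes went the other way, at 5.96% and 4.24%, and so did erythroid cells, at 16.2% and 2.49%. With 1 mouse for each label, genotype, mouse and bead selection cannot be told apart in these shares.

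**Figure D4:**
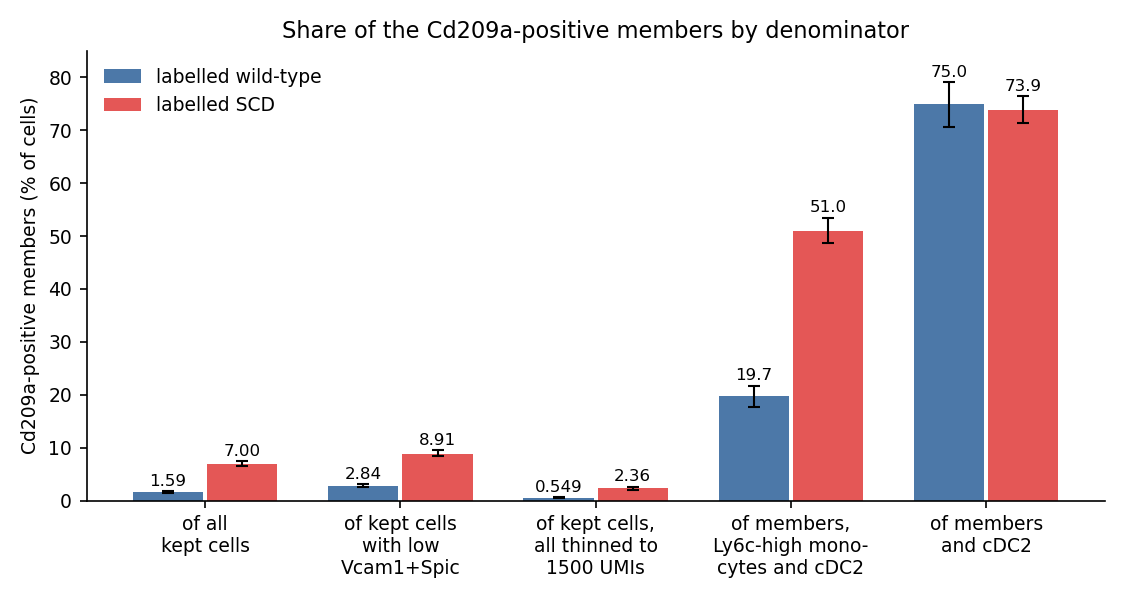
Bars give the percentage of Cd209a-positive members among the cells named under each pair of bars, in the library labelled wild-type (blue) and the library labelled SCD (red), with 95% exact binomial intervals that cover counting error only. The first 4 pairs are higher in the library labelled SCD, and the last, of members and cDC2, has overlapping intervals at 75% and 73.9%.

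Gene levels within members were then set side by side for the libraries. Of 8092 genes, 148 (1.83%) were more than 2-fold higher and 322 (3.98%) more than 2-fold lower in the library labelled SCD, with a median log2 ratio of 0.08 over all genes, and of 0.08 for the same genes in B lymphocytes. Of these, 33 of the higher and 200 of the lower genes were also past 2-fold the same way in B lymphocytes. S100a8, a neutrophil gene, was at 899 and 0.322 CPM in members and at 1636 and 37.8 CPM in B lymphocytes. Alas2, the erythroid heme synthesis gene, was at 387 and 119 CPM in members and, short of 2-fold, at 241 and 162 CPM in B lymphocytes. C1qa, a macrophage complement gene, was at 922 and 374 CPM in members and at 1048 and 371 CPM in B lymphocytes.

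The lists of other cell types gave the extent of this. Of 14 erythroid markers 12 were lower in the library labelled SCD and 2 higher, the 2 being Hbb-bs and Hbb-bt. Of 16 red pulp macrophage markers 9 were lower and 0 higher (median -1.09, and -1.31 in B lymphocytes), and of 8 neutrophil markers 6 were lower and 1 higher. Of 12 B lymphocyte markers 9 were higher and 0 lower (median 1.30), and Cd79a was at 18.4 and 66.9 CPM in members against 1480 and 2035 CPM in B lymphocytes. At least 2 of 6 erythroid genes were found in 30.1% and 4.77% of members and at least 2 of 5 B lymphocyte genes in 3.88% and 8.84%, and 207 and 748 members had neither. With these 207 and 748 members alone, 121 of 7264 genes were more than 2-fold higher in the library labelled SCD and 107 lower. Of these, 78 and 101 were among the 148 and 322 above. Summed over each list, all members held 8437 and 6987 CPM of erythroid genes, 10912 and 4477 CPM of macrophage genes, 2898 and 107 CPM of neutrophil genes and 726 and 1423 CPM of B lymphocyte genes. The most abundant gene of each list over both libraries was Hbb-bs, Hmox1, S100a9 and Ighm. The neutrophil genes Ly6g and Ltf had 0 UMIs in the members of the library labelled SCD. Leaving out the cells with the highest doublet scores would remove 72 and 187 members (23.3% and 21.7%). The genes past 2-fold between the libraries would then be 86 higher and 186 lower, of which 67 and 164 were among the 148 and 322. Siglech, which marks plasmacytoid DCs, was at 19.7 and 1.61 CPM and the T cell gene Cd3e at 2.30 and 1.93 CPM. Of the cDC1 markers, Xcr1 was at 1.38 and 3.54 CPM and Clec9a at 8.26 and 21.7 CPM, against 0.118 and 0.612 CPM of Clec9a in Ly6c-high monocytes. Of 5 cDC1 markers compared between the libraries, 1 was more than 2-fold higher in the library labelled SCD, and of 4 compared with monocytes 2 were higher in members. The part of free RNA or doublets in the differences between libraries was not tested.

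The study centers on NRF2 target, heme and iron genes. Of 16 such genes, 5 were lower in the members of the library labelled SCD and 0 higher, with a median of -0.86, and of -1.01 for the same genes in B lymphocytes. Hmox1, the heme-degrading oxygenase, was at 2752 and 1058 CPM in members, at 3160 and 953 CPM in B lymphocytes and at 10888 and 6695 CPM in macrophages. Nfe2l2, which encodes NRF2, was at 124 and 131 CPM in members. Of 24 cell cycle genes 9 were lower and 0 higher (median -0.95, and -0.78 in B lymphocytes), with Mki67 at 292 and 105 CPM in members.

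Counts of higher and lower genes depended on which genes were set aside by their level in other cell types. With genes kept at 2 times or more their lowest mean UMIs per cell among B lymphocytes, erythroid cells and macrophages, 6509 genes were left, of which 141 (2.17%) were more than 2-fold higher in the library labelled SCD and 287 (4.41%) lower. A stricter rule, chosen after the data had been seen, asked for 2 times the CPM of both B lymphocytes and erythroid cells in the library where a gene was higher. It left 778 genes, 53 (6.81%) higher and 7 (0.9%) lower, with a median log2 ratio of 0.30. Because a gene can pass these rules through the library in which it is higher, its difference helps decide whether it is kept. Applied to the mean CPM over both libraries, the stricter rule left 736 genes, 51 (6.93%) higher and 7 (0.951%) lower. A mean can also be carried by the library in which a gene is higher, so this version does not remove that limit. Over all 8092 genes, MHC class II genes gave 0 of 13 past 2-fold in either direction (median 0.32, and 0.54 in B lymphocytes), and core DC genes gave 1 of 28, Adam19 (median 0.45, and 0.50 in B lymphocytes). Clec10a was at 234 CPM in both. Cd209a, which the rule used, was at 1063 and 1216 CPM.

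Of 12 markers of Ly6c-low monocytes compared, 5 were more than 2-fold higher in the members of the library labelled SCD and 1, Fabp4, lower (median 0.54, and -0.19 in B lymphocytes). Itgal, the α chain of the integrin LFA-1, was at 142 (127 to 159) and 426 (410 to 443) CPM in members, at 264 and 867 CPM in Ly6c-high monocytes and at 111 and 136 CPM in B lymphocytes. Ace was at 86.3 (74.4 to 99.5) and 226 (215 to 238) CPM in members, at 29.8 and 85.1 CPM in Ly6c-high monocytes and at 384 and 809 CPM in Ly6c-low monocytes, so the library labelled SCD was higher in all 3 populations. Nr4a1, a nuclear receptor on which Ly6c-low monocytes depend, was at 57.8 and 139 CPM in members and at 44.7 and 248 CPM in Ly6c-high monocytes. Spn, which encodes CD43, was at 41.3 and 88.7 CPM in members. Ace and Spn are genes of the rule for Ly6c-low monocytes, and cells that met it were left out of Ly6c-high monocytes. The Ace levels of both monocyte populations therefore follow in part from their selection. The fifth was Bcl2a1d, which was also higher in Ly6c-high monocytes, at 2.24 and 7.34 CPM, and in cDC2, at 39.8 and 72.7 CPM. Ly6c-low monocytes also took the larger share of kept cells in the library labelled SCD, and their part in the members was not tested.

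Of single genes among the 778, the furthest above were Apol7c, Tppp3, Cd209b, Smpdl3b, Serpinb10, Ifi205, Emp1, Klra2, Tlr11 and Ccdc192. Apol7c was at 1.84 and 52.0 CPM in members, and it was also higher in the library labelled SCD in B lymphocytes, at 0.944 and 24.7 CPM, and in mature DCs, at 371 and 2284 CPM. In members Tppp3 was at 8.72 and 107 CPM and Serpinb10 at 11.5 and 77.1 CPM. Tppp3 and Serpinb10 were at 403 and 146 CPM in Ly6c-high monocytes of the library labelled SCD, above the members. Cd209b, a lectin gene near Cd209a on chromosome 8, was at 2.29 and 18.3 CPM in members (interval of the log2 ratio 1.73 to 4.65), at 0 and 9.34 CPM in cDC2, at 0.397 and 6.47 CPM in mature DCs and at 0 and 1.53 CPM in Ly6c-high monocytes. Among the 7 lower genes were Mmp8, Ifitm1, Iigp1, Adap2, H2-M2 and Pltp.

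**Figure D5:**
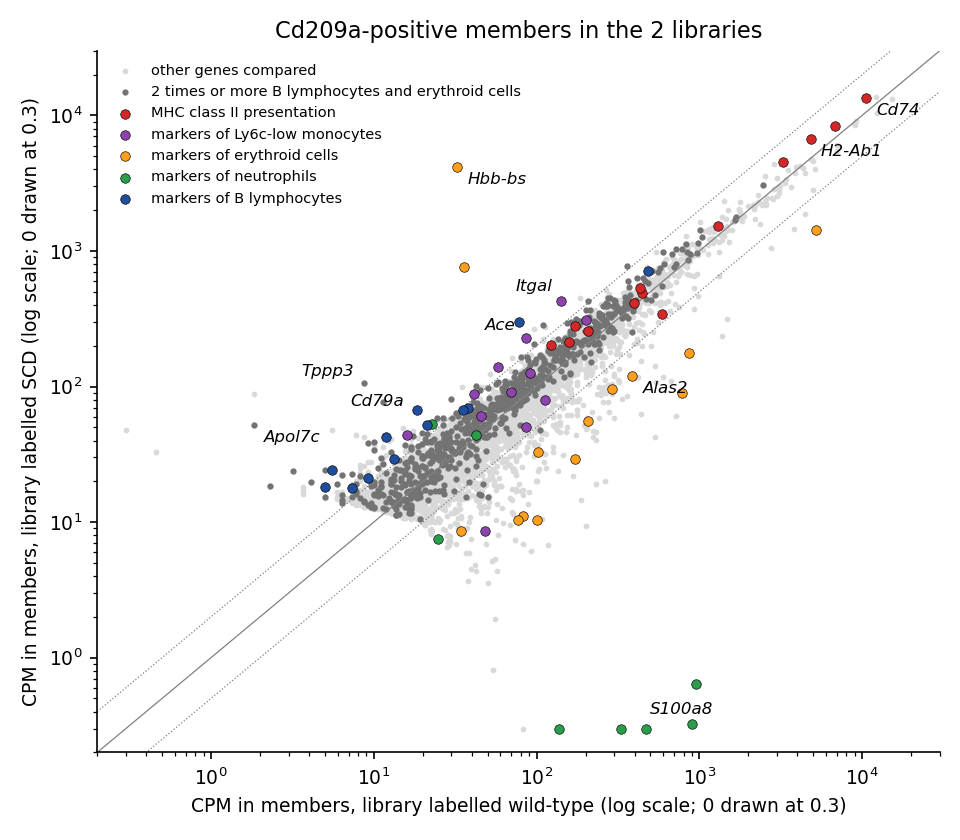
Each point is 1 of 8092 genes, placed by its CPM in the members of the library labelled wild-type (x axis) and of the library labelled SCD (y axis) on log scales, with a solid line at equal levels and dotted lines at 2-fold, and a level of 0 is drawn at 0.3 CPM. Most neutrophil and erythroid markers lie below the lines, most B lymphocyte markers above, MHC class II genes near equality, and Itgal, Ace, Tppp3 and Apol7c above.

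Under the first of these rules, the 10 genes furthest above also held Trim12a, Trim5 and Trim34a. Trim5 had 0 UMIs in the members of the library labelled wild-type and reached 48.1 CPM in the other, for a log2 ratio of at least 5.13 when 3 UMIs are allowed for the count of 0, and in B lymphocytes it was at 0 and 87.6 CPM. Trim12a was at 1.84 and 87.7 CPM in members and at 3.78 and 118 CPM in B lymphocytes. These genes lie on chromosome 7 at 472 kb (Trim12a), 435 kb (Trim5) and 416 kb (Trim34a) from Hbb-bs, which lies at a locus where the labelled genotypes differ beside the dose of the transgene. Ddx3y, a Y-linked gene, was at 172 and 169 CPM in members, so both libraries held it.

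Counts in single members are given for H2-Ab1 and Lyz2. With each cell thinned to 1500 UMIs, the 306 and 854 members deep enough had a median of 7 and 10 UMIs of H2-Ab1, with 10% of cells at or under 2 and 3 UMIs, and 4.25% and 3.63% had none. Lyz2 had a median of 1 and 1 UMI, none in 33.0% and 48.9% of members, and a highest value of 28 and 41 UMIs. A UMI of Lyz2 was found in 67.0% and 51.1% of members and in 40.1% and 9.75% of B lymphocytes at that depth.

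Members in which Ly6c2 was found lay further toward monocytes. After thinning they were 27 and 73 cells (8.82% and 8.55%), against 279 and 781 without, and the cells without it include the members with Ms4a4c alone, so this comparison overlaps with the split above. H2-Ab1 was at 2247 and 3571 CPM with Ly6c2 and at 5467 and 7610 CPM without. Fn1 was at 1531 and 1096 CPM with it and at 174 and 183 CPM without. The list medians, with Ly6c2 over without, were 1.02 and 1.25 for monocyte genes, -1.07 and -1.09 for MHC class II and -0.51 and -1.17 for core DC genes. Clec10a was at 272 and 356 CPM with it and 275 and 255 CPM without.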

How the data were processed

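The authors aligned the reads of both libraries with Cell Ranger to build GRCm38.p6 (4.0.0 in the submitters' processing notes, 3.1.0 in the file headers), and, without empty droplets, deposited counts of UMIs for each gene in each barcode. From the deposited counts, cells were filtered and selected as given above, and counts were summed per population and library to CPM in Python 3.11.15 with numpy 2.4.6, scipy 1.17.1 and pandas 2.3.3. Genes were compared with at least 100 UMIs over the populations in each library, or over both libraries' members, and called past 2-fold, in both libraries for comparisons within libraries. Intervals were exact Poisson for CPM, exact binomial for shares and exact conditional Poisson for ratios. A count of 0 was taken to allow 3 UMIs. Shares were also given after thinning each cell to 1500 UMIs. The members and the 28 gene lists were chosen with earlier results of these data known. The genes named were those of the selection, 4 of the genes of the study's quantitative PCR, the 4 most abundant genes of each list with its 2 largest rises and 2 largest falls, the 10 furthest genes past 2-fold on either side of each comparison, and checks of the labels. Bach2, Bhlhe40, Cd80, Ciita, Clec12a, H2-DMa, Ly6g, Siglech, Spn, Traf1 and Xcr1 were named beyond this rule, after their values had been seen, and the rule was extended to the Ms4a4c split and to the 778 genes afterwards. Doublets were scored with Scrublet in scanpy 1.11.5, whose threshold marked 0 cells in the library labelled wild-type, so the highest-scoring 10.7% there and the 14.2% marked in the other were left out in an alternative only. On simulated counts of the comparisons with monocytes, with cDC2 and between the libraries, 100% of 100 genes changed 4-fold were called the right way. Of unchanged genes, 0 were called against monocytes, 0 against cDC2 and 3 (0.0380%) between the libraries. These counts were drawn as independent Poisson counts, the model that the intervals assume. They held no variation among cells or mice, no free RNA and no doublets. They therefore check the calculation only and cannot say how many calls such variation would give.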

Additional observations from a re-analysis of the deposited data

Results flagged for a closer look

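Cxcl9, a chemokine gene induced by interferon-γ, was flagged because its difference between the members and Ly6c-high monocytes pointed in opposite directions in the libraries. In the library labelled wild-type it was at 32.1 CPM in members and at 15.6 CPM in monocytes, a log2 ratio of 1.04. In the library labelled SCD it was at 20.8 CPM in members and at 81.1 CPM in monocytes, a log2 ratio of -1.97. With 1 library of each label the difference between these ratios was not tested.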

How the results depend on the processing

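No paired analysis was possible because each label had 1 library. The alternatives without Ms4a4c as the sole monocyte gene, without members holding erythroid or B lymphocyte genes, with either free-RNA rule against B lymphocytes and erythroid cells and of members and cDC2 were chosen after seeing the data. The log2 ratio of the member share (2.14) ranged from -0.0216 to 2.51 over 15 alternatives. It reached -0.0216 among members and cDC2, and it moved to 1.94 under 10% mitochondrial UMIs, 1.91 with 1 Cd209a UMI, 2.51 without members holding erythroid or B lymphocyte genes, 1.65 among cells low in Vcam1 and Spic and 1.37 among members, Ly6c-high monocytes and cDC2. Counts past 2-fold followed the limits more closely. Against monocytes, the 278 higher and 196 lower genes became 120 and 63 with at least 2 monocyte genes, 158 and 103 with a monocyte gene other than Ms4a4c and 542 and 337 with free RNA subtracted, and the higher genes 185 at 200 UMIs and 100 after thinning. Against cDC2, the 65 higher and 57 lower became 125 and 93 at 50 UMIs, 34 and 29 at 200 UMIs, 303 and 135 with free RNA subtracted and 32 and 14 after thinning, the higher 127 with at least 3 cDC2 genes, and the lower 98 with at least 2 monocyte genes and 110 with one other than Ms4a4c. Between the libraries, the 148 higher and 322 lower became 86 and 186 without doublets and 80 and 210 at 200 UMIs. They became 444 and 675 with free RNA subtracted. After thinning they became 38 and 96, of which 21 and 86 were among the 148 and 322. Under the stricter free-RNA rule they were 53 and 7, and under that rule on mean CPM 51 and 7. The higher became 273 at 50 UMIs, and the lower 181 with at least 2 monocyte genes. Without members holding erythroid or B lymphocyte genes, 121 were higher and 107 lower. Of the list medians, 1004 moved little, 69 moved further and 1 reversed. The reversed median was that of Fc and complement receptors against cDC2 in the library labelled SCD, at -0.0930 after thinning. Of the values of named genes, 4782 moved little, 1147 moved further and 1 reversed. The reversed value was that of Arhgap6 against cDC2 in the library labelled wild-type, at 0.28 with at least 3 cDC2 genes. The causes were not tested. Thinning and higher limits on UMIs left fewer genes to compare. The cDC2 comparison rests on 103 cells in the library labelled wild-type.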
